A study of Mus musculus with 2 samples.

Results

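Cycling Myog-positive myocytes are cells that carried transcripts of Myog, the gene of the differentiation factor myogenin, together with transcripts of the proliferation genes Mki67 and Top2a. They were chosen in single-cell RNA libraries by these criteria: at least 1000 genes detected, at most 15% mitochondrial UMIs (unique molecular identifiers, 1 per captured RNA molecule), at most 1 UMI of Pax7, at least 2 Myog UMIs per 10000, under 1% of UMIs from 5 sarcomere genes (Acta1, Actc1, Myh3, Mylpf and Myl1), and at least 2 UMIs per 10000 of Mki67 and Top2a together. The rule found 310 cells among 15861 barcodes. Of these, 115 were among 7670 barcodes of the MyoD-KO library and 195 among 8191 barcodes of the MyoD-WT library.

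Both libraries held mouse induced myogenic progenitor cells at passage 4, each from a single clone, MyoD-KO or MyoD-WT, of the strain label Myod1tm1Jae. These lines were made from mouse embryonic fibroblasts by overexpressing Myf6 while the cells were kept in forskolin, RepSox and CHIR99021. Both clones were kept in the same medium, with 5 µM each of forskolin and RepSox, 3 µM CHIR99021 and 10 ng/mL of the growth factor bFGF. With 1 clone and 1 library per genotype, genotype, clone and library cannot be told apart, cells are not replicates, and no test between genotypes was possible. Intervals given here are 95% intervals for counting error alone.

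Skeletal muscle progenitors carry Pax7 and Myf5, divide, and then switch on myogenin as they become myocytes. Myocytes normally leave the cell cycle for good: CDK inhibitors such as p21 (Cdkn1a) and p57 (Cdkn1c) and the retinoblastoma protein (Rb1) hold back the E2F factors that drive DNA replication, and the fusion proteins myomaker (Mymk) and myomixer (Mymx) then join myocytes into fibres. Many genes of mitosis share promoter elements, the CHR (cell cycle genes homology region) and the CCAAT box, which are read by the DREAM and MuvB complexes and by NF-Y.

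Promoters are shown for 5 mitotic genes that stood among the furthest up in cycling cells, because each held both elements within the stretch printed. They were picked for holding them and serve as examples. The stretches run from 100 bases before to 50 bases after the annotated start, 5′ to 3′ on the gene's strand, and come from the RefSeq promoter table of build GRCm38.p6. Capitals mark the CHR (TTTGAA or TTCGAA on either strand, so also TTCAAA) and the CCAAT box (CCAAT, or ATTGG on the other strand).
Prc1 (chr7:80294351-80294500, plus strand): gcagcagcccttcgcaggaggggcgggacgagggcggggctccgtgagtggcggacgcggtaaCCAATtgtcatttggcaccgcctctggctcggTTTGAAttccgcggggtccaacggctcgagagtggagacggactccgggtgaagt
Depdc1a (chr3:159495333-159495482, plus strand): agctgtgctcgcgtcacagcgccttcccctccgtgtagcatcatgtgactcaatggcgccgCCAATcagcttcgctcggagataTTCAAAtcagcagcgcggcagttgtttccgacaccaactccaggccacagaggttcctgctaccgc
Aspm (chr1:139454673-139454822, plus strand): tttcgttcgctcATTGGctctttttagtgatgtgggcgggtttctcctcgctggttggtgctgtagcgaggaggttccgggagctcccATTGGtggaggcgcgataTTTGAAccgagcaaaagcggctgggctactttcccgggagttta
Plk1 (chr7:122159335-122159484, plus strand): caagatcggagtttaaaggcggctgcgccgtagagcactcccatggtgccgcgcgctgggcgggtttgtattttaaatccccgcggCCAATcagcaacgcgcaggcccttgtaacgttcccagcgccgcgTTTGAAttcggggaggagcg
Kif11 (chr19:37376282-37376431, plus strand): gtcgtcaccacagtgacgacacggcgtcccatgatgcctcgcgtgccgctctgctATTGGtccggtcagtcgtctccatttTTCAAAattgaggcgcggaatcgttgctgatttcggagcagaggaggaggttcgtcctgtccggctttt

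A gene was called when its level was at least 2-fold apart between sets of cells, with at least 10 counts per 1000000 UMIs (CPM) in the higher set. In cycling against low-proliferation myocytes (Mki67 and Top2a together under 0.5 per 10000), 8.67% of genes tested were called higher in KO and 6.83% in WT, and 441 genes in both clones. Of those 441, 355 matched the table, with 422 promoters from 250 bases before to 50 after the start. A CHR was found in 39.1% of those promoters, against 14.3% of the 7518 promoters of all genes tested in both clones and 19.2% of all 32851 promoters in the table. The CCAAT box was found in 60.4% of them, against 38.5% for all genes tested, and both elements together in 26.3%, against 5.99%. A match is a run of letters and was not shown to be bound here.

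The Myog promoter is shown beside these because Myog chose the cells. Its 150 bases before the start held 2 E-boxes (CANNTG, the letters bound by MyoD-family factors), 1 TATATTTA, the core of an MEF2 element, and 1 TCAGGTT, the core of a MEF3 element, all in capitals. It held neither a CHR nor a CCAAT box in the stretch printed. Of all promoters in the table, 1.17% held TATATTTA and 4.07% held TCAGGTT, while CANNTG was found in 72.3%.
Myog (chr1:134289854-134290003, plus strand): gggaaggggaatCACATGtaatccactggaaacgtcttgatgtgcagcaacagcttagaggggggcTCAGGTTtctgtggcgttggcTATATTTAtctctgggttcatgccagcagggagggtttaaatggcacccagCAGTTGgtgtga

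Myod1, the gene knocked out in the KO clone per its label, was read at 116 CPM in KO cycling myocytes and 351 CPM in WT ones (ratio 0.331, 0.302 to 0.361). The labels do not say which bases the allele removes, and a 3′ tag can come from a transcript whose coding part is missing, so these tags check nothing about the protein. Within each clone Myod1 was slightly higher in cycling than in low-proliferation myocytes, at 116 against 84.7 CPM in KO and 351 against 264 CPM in WT.

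The marker genes of the rule were detected jointly in most members. Mki67, a chromosome coat protein gene, and Top2a, the DNA topoisomerase of dividing cells, were both found in 103 of 115 KO members (89.6%) and 181 of 195 WT members (92.8%). The remaining KO members carried Top2a alone (12 cells), as did 13 WT members, and 1 WT member carried Mki67 alone. The median member had 30 Myog UMIs in KO and 25 in WT, and 39 UMIs of Mki67 and Top2a in KO and 32 in WT. A few members rested on little: 6 KO and 2 WT cells had a single UMI of Mki67 and Top2a, and 7 KO and 10 WT cells had at most 3 Myog UMIs.

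Depth and doublets were checked before any level was read, since a droplet holding a myocyte and a dividing progenitor would also carry both programmes. Cycling myocytes had a median of 46939 UMIs in KO, against 40426 in KO low-proliferation myocytes (the same cells with Mki67 and Top2a together under 0.5 per 10000). In WT the medians were 39286 UMIs in cycling myocytes, against 31218 in low-proliferation myocytes. Cycling Pax7-positive progenitors, defined by at least 2 Pax7 UMIs, Myog under 0.5 per 10000 and the same proliferation and sarcomere limits, had medians of 46119.5 UMIs in KO and 38989.5 in WT. Totals above 2 times the median of low-proliferation myocytes were found in 3 KO members (2.61%), against 4.85% of KO progenitors, and in 5 WT members (2.56%), against 5.32% of WT progenitors. Low-proliferation myocytes themselves had fewer such cells than the members, 1.22% in KO and 0.656% in WT. Scrublet, a doublet caller, marked 2 of 115 KO members and 0 of 195 WT members. It marked 2.49% of all kept KO cells and 0.0273% of kept WT cells, which is too few in WT for its calls to be relied on there. A Pax7 UMI, which the rule allows, was found in 43 of 115 KO members (37.4%), against 52 of 329 KO low-proliferation myocytes (15.8%). In WT it was found in 74 of 195 members (37.9%), against 61 of 305 low-proliferation myocytes. Whether these Pax7 UMIs came from doublets was not tested. The libraries shared 14 barcodes, and 0 of those were members.

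**Figure D1:**
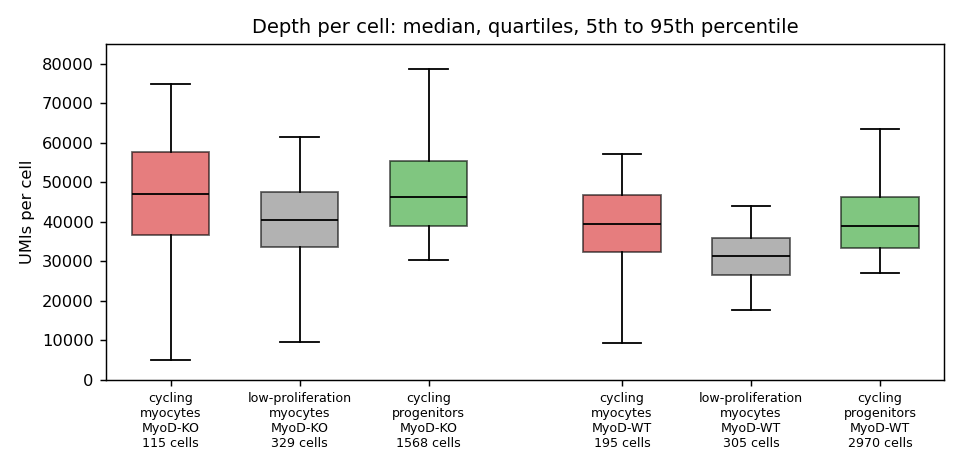
UMIs per cell in cycling myocytes, low-proliferation myocytes and cycling Pax7-positive progenitors, MyoD-KO on the left and MyoD-WT on the right; boxes give the median and quartiles and whiskers the 5th to 95th percentiles. Median totals of cycling myocytes (46939 UMIs in KO, 39286 in WT) lie beside those of cycling progenitors (46119.5 in KO, 38989.5 in WT) and above those of low-proliferation myocytes (40426 in KO, 31218 in WT).

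Cycling cells made up 20.6% of the KO Myog-positive early myocytes (115 of 558 cells, 95% Clopper-Pearson interval 17.3 to 24.2%) and 31.4% of the WT ones (195 of 621, 27.8 to 35.2%). The KO minus WT difference was -10.8 percentage points (-15.8 to -5.68). It was not seen in the shallower cells: with at most the median UMIs of the eligible cells in each library, the share was 15.4% in KO and 16.0% in WT. Cycling cells were deeper than low-proliferation cells, so this limit fell on them unevenly. It kept 43 of the 115 KO and 50 of the 195 WT cycling cells. Low-proliferation cells made up 59.0% in KO and 49.1% in WT, and 114 KO and 121 WT cells lay between the limits. Just inside the proliferation limit, at 2 to 3 per 10000, lay 24 KO and 20 WT cells, and just outside it, at 1 to 2 per 10000, lay 54 KO and 48 WT cells. At the Myog limit, 15 KO and 26 WT cycling cells lay at 2 to 3 per 10000 and 16 KO and 31 WT cells at 1 to 2 per 10000, so no gap in either measure separates the members from their neighbours.

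**Figure D2:**
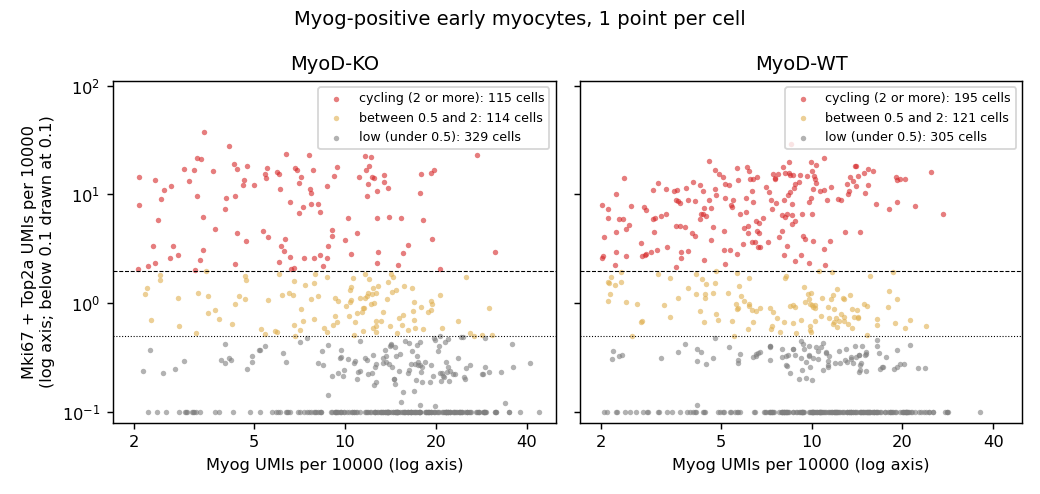
Myog UMIs per 10000 (log axis) against the sum of Mki67 and Top2a per 10000 (log axis) in each Myog-positive early myocyte, MyoD-KO on the left and MyoD-WT on the right, with dashed and dotted lines at 2 and 0.5 per 10000. The 115 KO and 195 WT cycling cells sit above the dashed line and thin out towards high Myog, while cells with 0 UMIs of both proliferation genes lie along the lower edge.

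The share of cycling cells was lower at higher Myog levels in both clones. In KO, cycling cells were 44.9% of cells at 2 to 5 Myog UMIs per 10000 (40 of 89), 33.1% at 5 to 10 (41 of 124), 12.9% at 10 to 20 (31 of 241) and 2.88% at 20 or more (3 of 104, 0.599 to 8.20%). In WT the shares were 49.3% (69 of 140), 38.7% (82 of 212), 17.3% (40 of 231) and 10.5% (4 of 38, 2.94 to 24.8%) in the same bins. The intervals of the 2 clones overlap in each of the 4 bins. Below the Myog limit, among cells with at most 1 Pax7 UMI, the clones stood further apart: 23.5% of KO cells (114 of 485) and 49.1% of WT cells (288 of 586) were cycling at Myog under 0.5 per 10000.

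Sarcomere transcripts gave the same order. Among Myog-positive cells with at most 1 Pax7 UMI, cycling cells were 28.7% of KO and 45.6% of WT cells with under 0.1% of UMIs from the 5 sarcomere genes, and 14.8% of KO and 18.9% of WT cells at 0.3 to 1%. Outside the rule, at 1 to 3%, 5 of 126 KO cells (3.97%) and 24 of 450 WT cells (5.33%) still passed the proliferation limit. At 3% or more, 9 of 749 KO cells (1.20%) and 5 of 526 WT cells (0.951%) did.

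**Figure D3:**
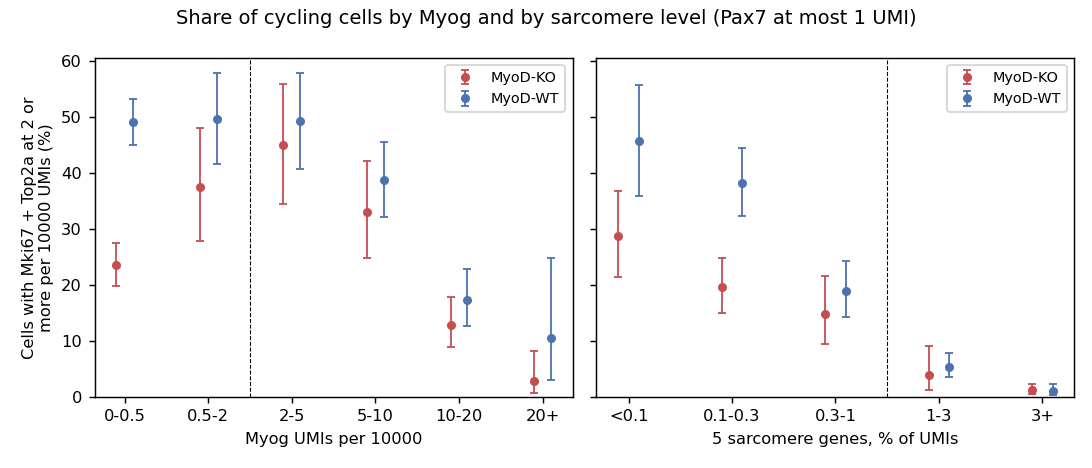
Percent of cells with Mki67 and Top2a together at 2 or more per 10000 UMIs, by Myog level (left, cells with at most 1 Pax7 UMI and under 1% sarcomere UMIs) and by sarcomere level (right, Myog-positive cells), MyoD-KO points left of MyoD-WT points; bars are 95% Clopper-Pearson intervals and dashed lines mark the limits of the rule. From 2 to 5 upward in Myog, the share is 44.9% in the lowest and 2.88% in the highest bin of KO, and 49.3% and 10.5% in those of WT.

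Levels of genes were compared by summing the UMIs of each set of cells and scaling to CPM. The call is the 2-fold one described with the promoters. Cycling against low-proliferation myocytes, 712 genes were called higher in KO (8.67% of 8214 tested) and 183 lower (2.23%). In WT 517 of 7569 were called higher (6.83%) and 204 lower (2.7%). Among 7276 genes tested in both, 441 were higher in both clones (74.5% of the 592 KO calls and 90.0% of the 490 WT calls), 63 were lower in both (48.8% of KO and 36.8% of WT calls), and 0 were called in opposite directions. Since Mki67 and Top2a divided these cells, the differences in cell cycle genes below describe the members and are no independent support for the division.

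Genes of mitosis were the furthest up. Of 50 G2M list genes at 10 CPM or more, 48 were called higher in KO and 49 in WT, with median log2 ratios of 4.16 and 3.54, against 0.04 and 0.03 for all genes. Plk1, a kinase that drives mitotic entry, stood at 71.5 CPM in KO cycling myocytes, against 1.44 CPM in KO low-proliferation myocytes (49.8-fold, interval 31.4 to 83.6). In WT it stood at 72.5 CPM in cycling and 2.19 CPM in low-proliferation myocytes (33.1-fold, 21.4 to 53.9). Aurkb, the kinase of the chromosomal passenger complex, stood at 74.7 CPM in cycling and 0.68 CPM in low-proliferation cells of KO, and at 63.8 and 1.77 CPM in those of WT. The spindle genes Prc1 and Kif11 and the spindle pole gene Aspm, whose promoters are printed above, were called higher in both clones: Prc1 was 43.8-fold higher in KO and 61.7-fold in WT, and Kif11 85.7-fold in KO and 43.3-fold in WT.

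Genes of DNA replication were higher by smaller ratios. Of the S phase list, 39 of 42 genes at 10 CPM were called higher in KO and 36 of 41 in WT, with medians of 2.22 and 1.80 on the log2 scale. Rrm2, the small subunit of ribonucleotide reductase, stood at 159 CPM in KO cycling myocytes, against 9.07 CPM in KO low-proliferation myocytes (17.5-fold), and at 112 CPM in WT cycling, against 17.2 CPM in WT low-proliferation cells (6.52-fold). Rad51ap1, a recombination cofactor, was 22.2-fold higher in KO and 12.4-fold in WT. Among the furthest-up genes were also the histone genes H1f5, H2ac24 and H2ac8, whose levels are uncertain because histone copies are nearly identical and reads could be split among them.

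The cyclin of mitosis differed more than the cyclin of the G1 to S step. Of the list of cyclins, CDKs and E2F factors, 11 of 20 genes at 10 CPM were called higher in KO and 10 of 18 in WT, and 0 lower in either. Higher calls over all genes were 8.67% in KO and 6.83% in WT. Ccnb1, cyclin B1 of mitosis, stood at 164 CPM in KO cycling cells, against 3.70 CPM in KO low-proliferation cells, and at 182 CPM in WT cycling cells, against 10.1 CPM in WT low-proliferation cells. Ccne1, cyclin E1 of the G1 to S step, differed less: 190 against 68.5 CPM in KO (2.77-fold) and 80.1 against 34.9 CPM in WT (2.29-fold). The D-type cyclins, which link growth signals to RB, were not called in KO: Ccnd1 stood at 113 CPM in cycling and 143 CPM in low-proliferation myocytes and Ccnd3 at 388 and 503 CPM. In WT, Ccnd1 stood at 45.2 and 57.2 CPM and Ccnd3 at 485 and 449 CPM in those sets.

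The inhibitors that close the cell cycle were present in the cycling cells. Cdkn1c stood at 7236 CPM in KO cycling myocytes, against 8527 CPM in KO low-proliferation myocytes (ratio 0.849, 0.839 to 0.858), and at 1900 CPM in WT cycling, against 3373 CPM in WT low-proliferation myocytes (ratio 0.563, 0.552 to 0.575). Per cell, KO members ranged from 0.514 to 164 Cdkn1c UMIs per 10000 with a median of 75.7, and WT members from 0 to 67.1 with a median of 13.3. Cdkn1a stood at 589 CPM in cycling and 546 CPM in low-proliferation cells of KO, and at 409 and 530 CPM in those of WT. Rb1 stood at 227 CPM in cycling and 230 CPM in low-proliferation cells of KO, and at 259 and 283 CPM in those of WT. These 3 genes were within 2-fold of the low-proliferation cells in both clones.

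Other genes of the inhibitor and RB list went with the cycle. Of 8 members at 10 CPM, 3 were called higher in each clone, against 8.67% of all genes in KO and 6.83% in WT. They were the same 3: Rbl1, which encodes the RB relative p107, and Cdkn2c and Cdkn2d, which encode the CDK4 and CDK6 inhibitors p18 and p19. Rbl1 stood at 43.6 CPM in KO cycling, against 6.20 CPM in KO low-proliferation myocytes (7.03-fold), and at 37.9 CPM in WT cycling, against 4.48 CPM in WT low-proliferation myocytes (8.44-fold). Their ratios to cycling progenitors lay between 0.804 and 1.02.

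**Figure D4:**
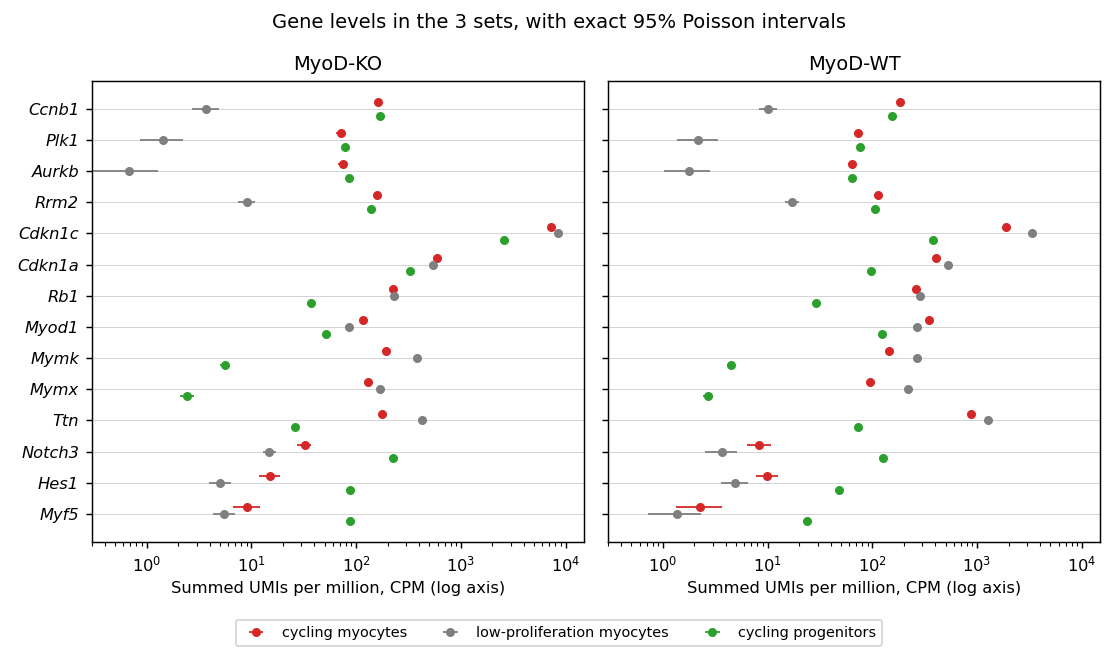
CPM (log axis) of named genes in cycling myocytes, low-proliferation myocytes and cycling Pax7-positive progenitors, MyoD-KO on the left and MyoD-WT on the right, with exact 95% Poisson intervals. In cycling myocytes Ccnb1, Plk1, Aurkb and Rrm2 lie beside the progenitor points, Cdkn1c, Cdkn1a, Rb1, Mymk, Mymx and Ttn lie nearer the low-proliferation points, and Notch3, Hes1 and Myf5 lie nearer the low-proliferation points with progenitors far above.

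Genes of muscle commitment and of the contractile apparatus were lower in cycling than in low-proliferation myocytes where they were called. The cycling cells also held less Myog. Their median was 6.82 Myog UMIs per 10000 in KO, against 15.02 in low-proliferation myocytes, and 6.48 against 10.86 in WT. Of the commitment and fusion list, 0 genes were called higher in either clone, and 2 of 21 in KO and 5 of 23 in WT were called lower, with median log2 ratios of -0.34 and -0.54. Over all genes tested, 2.23% were called lower in KO and 2.7% in WT. Mymk stood at 193 CPM in KO cycling, against 379 CPM in KO low-proliferation myocytes (ratio 0.510), and at 145 CPM in WT cycling, against 266 CPM in WT low-proliferation myocytes (0.545), so it was not called. Mymx was called lower in WT (95.9 against 220 CPM, ratio 0.435) but not in KO (129 against 168 CPM, ratio 0.769).

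Of the sarcomere list without the genes of the rule, 8 of 20 were called lower in KO and 7 of 21 in WT, and 0 higher. Lower calls over all genes were 2.23% in KO and 2.7% in WT. Ttn, the titin gene, stood at 175 CPM in KO cycling, against 423 CPM in KO low-proliferation myocytes, and at 866 CPM in WT cycling, against 1283 CPM in WT low-proliferation myocytes, where it was not called. Mef2c, a factor of muscle differentiation, was called lower in both, at 66.0 against 199 CPM in KO and 328 against 683 CPM in WT. Outside the lists, Spon1, an extracellular matrix gene, stood at 19.8 against 87.2 CPM in KO and 13.8 against 54.2 CPM in WT, and Ldb3, a Z-disc gene, at 17.0 against 99.0 CPM in KO and 27.0 against 93.3 CPM in WT. The histone demethylase gene Kdm5b was 0.279 and 0.259 of the low-proliferation level in KO and WT.

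Among the smaller lists, calcium handling and fibre metabolism had 2 of 10 genes called lower than in low-proliferation myocytes in KO and 5 of 9 in WT, and 0 higher. The share of all genes called lower was 2.23% in KO and 2.7% in WT. Casq2, calsequestrin of the sarcoplasmic reticulum, stood at 17.5 CPM in WT cycling, against 69.6 CPM in WT low-proliferation myocytes, and at 14.3 against 25.9 CPM in KO. The Id list, inhibitors of MyoD-family factors with their partners, had 2 of 7 called higher in KO and 1 of 6 in WT. Over all genes tested, 8.67% were called higher in KO and 6.83% in WT. Counts of 2 and 1 are too few to be read against those shares. Id2 was called in both, at 71.8 against 34.1 CPM in KO and 122 against 51.9 CPM in WT. Smooth muscle markers, of which Acta2 and Des are also made by myocytes, summed to 1148 against 1501 CPM in KO and 1514 against 1819 CPM in WT.

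Against cycling Pax7-positive progenitors, 442 genes were called higher in cycling myocytes in KO (5.09% of 8692 tested) and 838 lower (9.64%). In WT 422 of 7936 were called higher (5.32%) and 608 lower (7.66%). In both clones 239 genes were higher (67.9% of 352 KO and 66.2% of 361 WT calls) and 305 lower (64.9% of 470 KO and 56.6% of 539 WT calls), while 11 were called in opposite directions. The rule used Pax7 and Myog here, so this contrast also describes the members. Both sets also had to pass the same limit of Mki67 and Top2a. Similar levels of cell cycle genes were therefore favoured by the choice of cells and are no independent result.

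Few G2M and S phase list genes were called between the 2 kinds of dividing cell. Of 50 G2M genes, 0 were called higher and 1 lower in each clone, with medians of -0.21 in KO and 0.05 in WT. Of 42 S phase genes, 2 were called higher and 0 lower in KO, and 1 each way in WT. The list of cyclins, CDKs and E2F factors had 2 of 20 called higher and 2 lower in KO, and 2 of 18 higher and 1 lower in WT, against 5.09% higher and 9.64% lower over all genes in KO and 5.32% and 7.66% in WT. The S phase median was 0.09 in KO and -0.45 in WT, against -0.11 and -0.16 for all genes. Summed S phase levels were 3402 CPM in KO cycling myocytes, against 3008 CPM in KO progenitors, and 2416 CPM in WT cycling myocytes, against 3004 CPM in WT progenitors. In the per-cell sums, the G2M list stood above the S phase list in 75.7% of KO members, against 85.6% of KO progenitors, and in 92.8% of WT members, against 87.0% of WT progenitors. The lists hold different genes, so the position of that line is arbitrary and the shares serve only to set one group of cells beside another.

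Most genes of the commitment and fusion list and of the sarcomere list were higher in cycling myocytes than in cycling progenitors. Of the commitment and fusion list, 14 of 21 genes were called higher and 2 lower in KO, and 16 of 22 higher and 1 lower in WT, with medians of 2.09 and 2.25. The share of all genes called higher was 5.09% in KO and 5.32% in WT. Mymk stood at 193 CPM in KO cycling myocytes, against 5.60 CPM in KO progenitors (34.6-fold, 30.9 to 38.8), and at 145 CPM in WT cycling myocytes, against 4.49 CPM in WT progenitors (32.3-fold, 29.2 to 35.9). Mymx was 52.9-fold higher in KO and 35.5-fold in WT. Both fusion genes are targets of myogenin and MyoD in muscle.

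With every cell thinned to 5000 UMIs, 8 KO and 6 WT members were too shallow to be kept. Myog, which chose the cells, was then found in 92.5% of KO members and 91.0% of WT members, against 6.57% of KO and 5.32% of WT cycling progenitors. Mymk was found in 44.9% of KO members and 42.9% of WT members. It was found in 3.32% of KO and 1.82% of WT cycling progenitors and in 4.40% of KO fibroblast-like cells. Those had at least 5 UMIs per 10000 of Dcn and Crabp1 and 0 UMIs of Pax7. They had no limit on Myog or sarcomere genes, and 13.2% of them held Myog after thinning, so they are no clean background. Without thinning the shares with Mymk were 79.1% of KO and 82.1% of WT members, 22.2% of KO and 15.5% of WT progenitors, and 16.3% of the fibroblast-like cells. Median totals before thinning were 48187 UMIs in the KO members kept, 39400 in the WT ones, 46119.5 in KO and 38989.5 in WT progenitors, and 47248 in fibroblast-like cells. Mymk was therefore found in a larger share of members than of progenitors or fibroblast-like cells. A doublet of a myocyte and a progenitor would also carry it. The share was larger still in thinned low-proliferation myocytes, 69.3% in KO and 62.0% in WT. Pax7 was found in 7.48% of thinned KO members, against 1.27% of thinned KO low-proliferation myocytes. In WT these shares were 5.82% and 2.33%.

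The MEF2 factor gene Mef2a stood at 874 CPM in KO cycling myocytes, against 212 CPM in KO progenitors, and at 561 CPM in WT cycling myocytes, against 101 CPM in WT progenitors. The sarcomere list had 13 of 18 genes called higher in KO and 16 of 19 in WT, and 0 lower, against 5.09% and 5.32% higher over all genes. Tnnt2, the troponin T of embryonic muscle and heart, was 11.0-fold higher in KO and 12.2-fold in WT, and Ttn 6.72-fold in KO and 12.0-fold in WT. The transcription factor genes Zbtb18 and Casz1 were also far up: Zbtb18 stood at 237 CPM in KO cycling myocytes, against 13.5 CPM in KO progenitors, and at 224 CPM in WT cycling myocytes, against 12.6 CPM in WT progenitors. Casz1 was 59.3-fold higher in KO and 33.5-fold in WT. Vgll2, a TEAD cofactor of skeletal muscle, was 17.1-fold higher in KO and 18.3-fold in WT, and Dok7, which activates the neuromuscular receptor kinase MuSK, 32.7-fold in KO and 17.2-fold in WT.

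Rb1 and Cdkn1c were higher in cycling myocytes than in the dividing progenitors. Rb1 stood at 227 CPM in KO cycling myocytes, against 36.8 CPM in KO progenitors (6.17-fold, 5.77 to 6.61), and at 259 CPM in WT cycling myocytes, against 29.0 CPM in WT progenitors (8.95-fold, 8.46 to 9.46). Cdkn1c was 2.77-fold higher in KO and 5.05-fold in WT. Cdkn1a was 4.18-fold higher in WT (409 against 97.7 CPM), and 1.79-fold in KO (589 against 330 CPM), under the limit for a call. Rb1 was found in 69.2% of thinned KO members, against 13.9% of KO progenitors, and in 66.1% of thinned WT members, against 12.4% of WT progenitors. The antiproliferative gene Btg1 was 3.09-fold higher in KO and 4.98-fold in WT.

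Several stem cell and Notch genes were lower. Of the satellite cell and progenitor list without Pax7, 8 of 19 genes were called lower and 1 higher in KO, and 8 of 17 lower and 0 higher in WT. Over all genes tested, 9.64% were called lower in KO and 7.66% in WT. Notch3, a receptor of quiescence and self-renewal signalling, stood at 32.2 CPM in KO cycling myocytes, against 225 CPM in KO progenitors, and at 8.32 CPM in WT cycling myocytes, against 127 CPM in WT progenitors. Hes1, a Notch target, stood at 15.1 against 88.1 CPM in KO and 9.93 against 47.7 CPM in WT. Myf5, which progenitors carry along with Pax7, stood at 9.05 against 88.4 CPM in KO and 2.28 against 23.6 CPM in WT. Id3, an inhibitor of the MyoD family, lay between progenitors and low-proliferation myocytes, at 257 CPM in KO cycling myocytes with 407 CPM in progenitors and 128 CPM in low-proliferation cells, and at 146, 256 and 81.3 CPM in those sets of WT.

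Of the p53 target list, 6 of 14 genes were called lower in KO and 4 of 12 in WT, and 0 higher. The share of all genes called lower was 9.64% in KO and 7.66% in WT. Among the single genes furthest down in both clones were Eya1, a phosphatase and cofactor of muscle transcription factors, Rora, a nuclear receptor gene, and Pde10a, a phosphodiesterase gene. Rora stood at 170 CPM in KO cycling myocytes, against 900 CPM in KO progenitors, and at 69.0 CPM in WT cycling myocytes, against 874 CPM in WT progenitors. Fibroblast markers moved with this contrast: their summed level was 219 CPM in KO cycling myocytes, against 969 CPM in KO progenitors, and 18.4 CPM in WT cycling myocytes, against 109 CPM in WT progenitors. Of the 12 markers, 3 were at 0 in KO members and 5 in WT members, and their part in the result was not tested. Endothelial and immune markers summed to at most 1.89 CPM in members of either clone. Neural and Schwann markers summed to 143 CPM in KO members, with 144 CPM in KO progenitors and 70.1 CPM in KO low-proliferation myocytes. In WT these sums were 26.6, 72.1 and 22.1 CPM.

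The members differed among themselves along their Myog level. They were divided at 5 and 10 Myog UMIs per 10000 into 40, 41 and 34 KO cells and 69, 82 and 44 WT cells. From the low to the high bin, Mymk stood at 87.8, 170 and 330 CPM in KO and at 48.3, 131 and 295 CPM in WT. Cdkn1c stood at 5118, 7506 and 8915 CPM in KO and at 1213, 1950 and 2687 CPM in WT, and Id3 ran the other way, at 349, 255 and 170 CPM in KO and 199, 145 and 79.3 CPM in WT. Each of the 3 genes kept 1 direction through the bins in both clones.

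Pcna and the summed S phase list were lowest in the members with the most Myog, but Mcm2 in KO was not. Pcna, the clamp of DNA polymerases, stood at 239, 229 and 136 CPM in KO and at 227, 131 and 78.8 CPM in WT. The S phase list summed to 3667, 3802 and 2580 CPM in KO and to 3229, 2253 and 1675 CPM in WT. Mcm2, a subunit of the replicative helicase, stood at 58.3, 82.8 and 64.4 CPM in KO, lowest in the bin with the least Myog, and at 84.4, 83.9 and 44.1 CPM in WT. G2M list sums were 8267, 6691 and 8260 CPM in KO, with no single direction, and 7638, 8805 and 10252 CPM in WT. Cdkn1a was higher in each next WT bin, at 250, 414 and 602 CPM, and stood at 556, 520 and 719 CPM in KO.

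**Figure D5:**
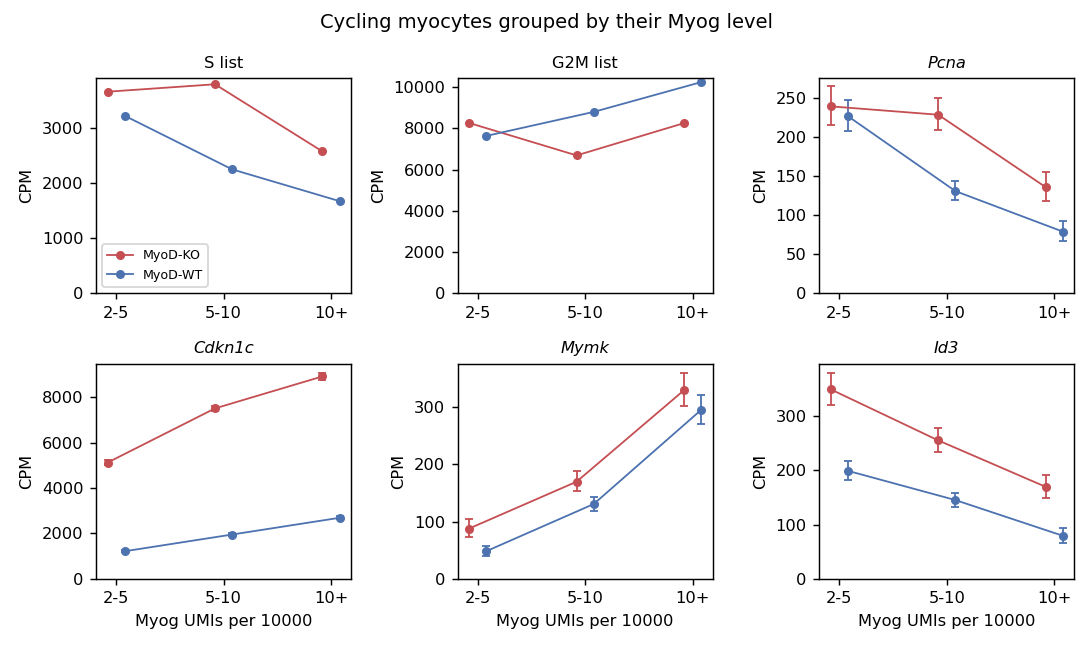
Summed CPM of the S phase and G2M lists and of Pcna, Cdkn1c, Mymk and Id3 in cycling myocytes grouped by Myog UMIs per 10000 (2 to 5, 5 to 10, and 10 or more), MyoD-KO points left of MyoD-WT points; bars, where drawn, are exact 95% Poisson intervals. Cdkn1c and Mymk are highest and Pcna, Id3 and the S phase list lowest in the bin with the most Myog in both clones.

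Between the clones, 1094 genes were called higher in KO than in WT cycling myocytes (13.4% of 8184 tested) and 327 lower (4%). The rule did not use this contrast, but it rests on 1 library each. The median gene stood 0.22 higher in KO on the log2 scale, and scaling by TMM or by the median of ratios took out 0.22 or 0.24. Higher calls were 77.0% of all calls without such scaling, 63.9% with TMM (841 higher, 475 lower) and 61.8% with the median of ratios (820 higher, 506 lower), so values are best read against a shift of about 0.22.

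Contractile genes were lower in KO members, but this order was not limited to the cycling cells. Summed over the sarcomere list without the genes of the rule, KO members held 3301 CPM against 6604 CPM for WT members. The KO sum was also the smaller one in low-proliferation myocytes (4768 against 9198 CPM) and in cycling progenitors (1725 against 2310 CPM). Of the sarcomere list, 10 of 19 genes were called lower and 0 higher, with a median of -0.71, against 0.22 for all genes. Ttn was 0.202 of the WT level, Tnnt1, slow troponin T, 0.117 (114 CPM in KO, 979 CPM in WT) and Smyd1, a muscle methyltransferase gene, 0.188 (14.3 CPM in KO, 76.4 CPM in WT). Mef2c was 0.201 of the WT level, at 66.0 CPM in KO against 328 CPM in WT. Mymk and Mymx were not called, at ratios of 1.33 and 1.35. Myog, which chose the cells, stood at 837 CPM in KO members, against 783 CPM in WT members.

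Cdkn1c and Cdkn2a were higher in KO members, and for Cdkn1c this order was not limited to the cycling cells. Cdkn1c was 3.81-fold higher (3.74 to 3.88), and Cdkn2a, the locus of p16 and p19Arf, stood at 348 CPM in KO against 81.4 CPM in WT. Per cell, the median of Cdkn1c in low-proliferation myocytes was 88.2 UMIs per 10000 in KO and 29.9 in WT. In cycling progenitors it was 21.5 in KO and 2.05 in WT. Of the S phase list, 8 of 42 genes were called higher and 0 lower, against 13.4% and 4% of all genes tested. A count of 8 is too close to the share over all genes to be read as a trait of the list. The list median was 0.61, against 0.22 for all genes. Among the 8 were Clspn, a replication checkpoint gene (76.7 CPM in KO, 37.1 CPM in WT), and Tyms, thymidylate synthase (153 CPM in KO, 71.6 CPM in WT). Ccne2, cyclin E2, was 3.87-fold higher (51.5 CPM in KO, 13.3 CPM in WT). The G2M list had 1 of 50 called each way and a median of -0.05.

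Among the cyclins and kinases, Ccnd2 and Cdk6 stood out. Ccnd2, cyclin D2, had 658 UMIs (124 CPM) in KO members and 1 UMI (0.13 CPM) in WT members, a ratio of 924 with a counting interval of 165 to 36554. Cdk6, its kinase partner, stood at 80.7 CPM in KO against 0.40 CPM in WT. The other sets of cells showed the same order: Ccnd2 stood at 164 CPM in KO low-proliferation myocytes and 255 CPM in KO progenitors, against 0.94 and 0.78 CPM in those of WT, and Cdk6 at 66.9 and 121 CPM in KO, against 0.63 and 4.24 CPM in WT.

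Fibroblast and satellite cell genes were also higher in KO members, but this order was not limited to the cycling cells. Of the satellite cell and progenitor list, 9 of 16 were called higher and 1 lower, and of the p53 list 6 of 13 higher and 0 lower. Over all genes tested, 13.4% were called higher and 4% lower. In low-proliferation myocytes the satellite cell list summed to 1057 CPM in KO against 565 CPM in WT, and the p53 list to 963 against 657 CPM. In cycling progenitors these sums were 1770 against 932 CPM and 1931.5 against 1091 CPM. S100a4, a calcium-binding protein gene, stood at 246 CPM in KO against 0.27 CPM in WT, and Lgals3, the galectin-3 gene, at 403 and 0.67 CPM. The summed fibroblast list was 219 CPM in KO members against 18.4 CPM in WT members. It was 175 against 18.2 CPM in low-proliferation myocytes and 969 against 109 CPM in cycling progenitors. The fibroblast-like definition was met by 92 KO and 0 WT cells. The part of the fibroblast list in these differences was not tested. The genes lowest in KO were led by Adgrl3, a latrophilin adhesion receptor gene, with 0 UMIs in KO members and 376 UMIs (50.5 CPM) in WT members, and included Nnat, at 15.6 CPM in KO against 528 CPM in WT.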

How the data were processed

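Single-cell 3′ libraries (10x Genomics v3.1 chemistry) of 1 MyoD-KO and 1 MyoD-WT clone were deposited as matrices of raw UMI counts per gene and cell barcode. Cell Ranger 7.2.0 had written them, per the file headers. The submitters' processing notes also name Seurat and GRCm39, without their roles. The files list 25906 genes, and cell calling had been applied to the barcodes.

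The libraries held 282739488 UMIs in KO and 285232252 in WT. Filters on genes and mitochondrial UMIs kept 5782 KO and 7318 WT cells (medians of 40929.5 and 35522 UMIs). Cells, the proliferation limits and the comparison sets follow the rule in the report. Members were not filtered on doublets; Scrublet was run with scanpy 1.11.5 at an expected rate of 0.06. UMIs were summed per set and scaled to CPM without a normalization factor. A count of 0 was set to a floor of 3 counts per set for ratios. Ratios carry conditional binomial intervals, levels exact Poisson intervals and shares Clopper-Pearson intervals (scipy 1.17.1). PCR duplicates are collapsed by UMIs, and all intervals cover counting error only. Fibroblast-like cells had at least 5 UMIs per 10000 of Dcn and Crabp1 and 0 UMIs of Pax7. TMM factors came from edgeR 4.0.16.

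Named genes are the regulators, inhibitors and cyclins at 10 CPM or more, the 10 genes furthest up and down in each contrast at 50 CPM or more in the higher set, up to 4 members per list, and the 5 S phase and 5 G2M genes furthest up in both clones. For contrasts within clones the smaller absolute log2 ratio of the 2 clones ranked the genes. Ribosomal protein and mitochondrial genes, sex-linked genes and Gm or Rik models were not ranked. The members and the 17 gene lists were chosen with earlier results of these data known. List medians are over those members whose mean reached 1 CPM. Pcna and sums over the S phase and G2M lists by Myog bin were added as description.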

Additional observations from a re-analysis of the deposited data

Results flagged for a closer look

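Barx2, a homeobox gene expressed in muscle progenitors, went opposite ways in the clones between cycling myocytes and cycling progenitors. In KO it stood at 2.64 CPM in cycling myocytes (14 UMIs), against 19.8 CPM in progenitors, a log2 ratio of -2.91. In WT it stood at 57.9 CPM in cycling myocytes, against 16.9 CPM in progenitors, a log2 ratio of 1.78. The difference between the clones was not tested, since each is 1 library. Low-proliferation myocytes had levels close to those of cycling myocytes, at 1.97 CPM in KO against 57.6 CPM in WT.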

How the results depend on the processing

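The lower KO share of cycling cells was lost with at most the median UMIs, at 15.4% in KO (43 of 279) and 16.0% in WT (50 of 312). Under the other alternatives it remained lower, at 16.0% in KO and 26.2% in WT with Myog at 5 or more per 10000, 16.5% in KO and 27.0% in WT with Pax7 at 0 UMIs, 14.3% in KO and 25.3% in WT with Mki67 and Top2a at 4 or more, 21.3% in KO and 35.7% in WT with under 0.5% sarcomere UMIs, and 36.5% in KO and 51.7% in WT with the rule applied to cells thinned to 10000 UMIs, where the Pax7 limit admits more cells. Removing Scrublet calls or the 6% highest scores, or keeping cells with at least 10000 UMIs (chosen after seeing the data), left them within their counting intervals. Counts of genes moved most with the minimum level. At 50 CPM, cycling against low-proliferation myocytes gave 250 higher and 62 lower in KO and 181 and 66 in WT, cycling myocytes against progenitors 235 and 279 in KO and 215 and 174 in WT, and KO against WT 327 and 137. With no minimum these came to 2159 and 877, 1326 and 1262, 2951 and 2148, 3151 and 2023, and 3077 and 902. Genes lower than in progenitors numbered 418 in KO and 310 in WT under the thinned rule. Genes lower than in low-proliferation myocytes numbered 291 in KO and 332 in WT with at most the median UMIs, and genes lower in KO than in WT 506 with median-of-ratios scaling. The cause was not tested. Of the named genes at least 2-fold apart in the main setting, Mybph and Myoz2 turned sign with at most the median UMIs. In WT cycling against low-proliferation myocytes their log2 ratios went to 0.045 and 0.18, from -1.29 and -1.21. Sign changes of smaller ratios were not counted. No paired analysis was possible because each genotype has 1 library. Depth limits the single cells: 10 KO and 11 WT members had under 10000 UMIs.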

Other observations

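Cells that carried at least 2 Pax7 UMIs together with Myog at 2 or more per 10000 fall outside the rule. Of them, 137 of 307 KO cells (44.6%, 39.0 to 50.4%) and 317 of 425 WT cells (74.6%, 70.2 to 78.7%) passed the proliferation limit, against 59.1% of the KO and 78.8% of the WT Pax7-positive progenitors with Myog under 0.5 per 10000. Of the antiproliferative list in WT, 6 of 10 genes at 10 CPM were called higher in members than in cycling progenitors and 1 lower (median log2 ratio 0.61), against 5.32% and 7.66% of all genes tested. Against low-proliferation myocytes, 1 of 9 was called higher and 1 lower in WT (median -0.50), against 6.83% and 2.7%. In KO, 3 of 12 were called higher and 2 lower than in progenitors (median 0.16), against 5.09% and 9.64%, and 0 of 10 higher and 1 lower than in low-proliferation myocytes (median -0.02), against 8.67% and 2.23%. Gadd45b, a stress-induced growth arrest gene, stood at 51.8 CPM in KO cycling myocytes, against 8.08 CPM in KO progenitors, and at 25.6 CPM in WT cycling myocytes, against 4.67 CPM in WT progenitors.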
